A study of Mus musculus with 24 samples.

Results

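The TNF and TNF receptor superfamily was followed as 36 genes, of 49568 listed in each of the 2 expression tables of the series. Members were taken by symbol and not by any measured value: the genes named Tnfsf or Tnfrsf with a number, together with Tnf, Lta, Ltb and Ltbr. By role they were 14 ligands, 21 receptors and 1 antisense RNA, Tnfsf13os. RNA was measured by Smart-seq2, a full-length protocol for small cell numbers, in 24 mouse liver samples from 2 experiments.

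In the first experiment 4 fractions were sorted from the healthy liver of 3 littermates aged 12 weeks, mice A and E (male) and F (female), which carried an H2B-EGFP reporter in 1 copy of Pdgfra (B6.129S4-Pdgfratm11(EGFP)Sor/J, heterozygous, on C57BL/6). These were EpCAM+ ductal cells (DCs), the epithelium of the bile ducts, and stromal cells that were PDGFRα+SCA1+, PDGFRα+SCA1- or PDGFRα-SCA1+, with CD45+, CD11b+ and CD31+ cells gated out of each. The second experiment used wild-type C57BL/6 mice of 8 to 12 weeks, with 2 samples in each of 6 groups: DCs at day 0, organoids grown from DCs without stroma in expansion medium (EM), organoids grown above SCA1+ cells across a membrane (co-culture), SCA1+ cells at day 0, SCA1+ cells cultured alone, and SCA1+ cells cultured below DCs. The cultured samples were taken at day 15, the SCA1+ cells had been expanded before DCs were added, and this sort did not use PDGFRα. EM and co-culture organoids also differed in medium, so that medium and stroma cannot be told apart in that contrast. The SCA1+ samples came from 2 littermates and the DCs from 2 others, so that samples of a compartment may share animals, and p-values in this experiment rest on the spread between these few samples.

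Ligands of this superfamily are mostly trimeric membrane proteins, some of them shed, and their receptors carry cysteine-rich domains outside the cell. Receptors with a death domain can engage TRADD and FADD and, through them, caspase 8, whereas others bind TRAF proteins directly, and both routes can activate NF-κB. In the liver the pair of TWEAK (Tnfsf12) and its receptor Fn14 (Tnfrsf12a) is known for its part in the ductular reaction, the expansion of ductal cells after injury, and osteoprotegerin (Tnfrsf11b) is a secreted decoy for RANKL (Tnfsf11) and TRAIL (Tnfsf10).

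Values of the sorted fractions are given as deposited, a per-length scale near TPM whose columns sum to between 847270 and 1173511, and values of the transwell experiment as TPM scaled from the deposited RPKM. Levels of different genes are therefore compared per length and within an experiment only. In the sorted fractions, sample totals appear to have been applied to other samples in turn from gene to gene. The resulting error differs by gene and sample. Undoing it, run as an alternative, multiplied single values by 0.722 to 1.39. Depth read from the steps between low values was 19.6 to 25.7 M reads a sample in the fractions and 19.3 to 28.0 M in the transwell experiment. In such bulk samples, fewer cells of a type and less RNA per cell cannot be told apart. DCs carried the 5 ductal markers at a summed level of 54236 to 74150, and both PDGFRα+ fractions the 6 mesenchymal markers at 28547 to 51010. PDGFRα-SCA1+ cells, labelled mesenchymal, held the same mesenchymal markers at 282 to 466 and 6 endothelial markers (Kdr, Pecam1, Cdh5, Flt4, Tek and Vwf) at 2530 to 2717, against 2.55 to 19.4 in the other fractions. Pecam1, which encodes the CD31 used to gate endothelial cells out, stood at 726, 732 and 929 there. That fraction is called PDGFRα-SCA1+ throughout, and no mesenchymal identity is read into it.

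**Figure D1:**
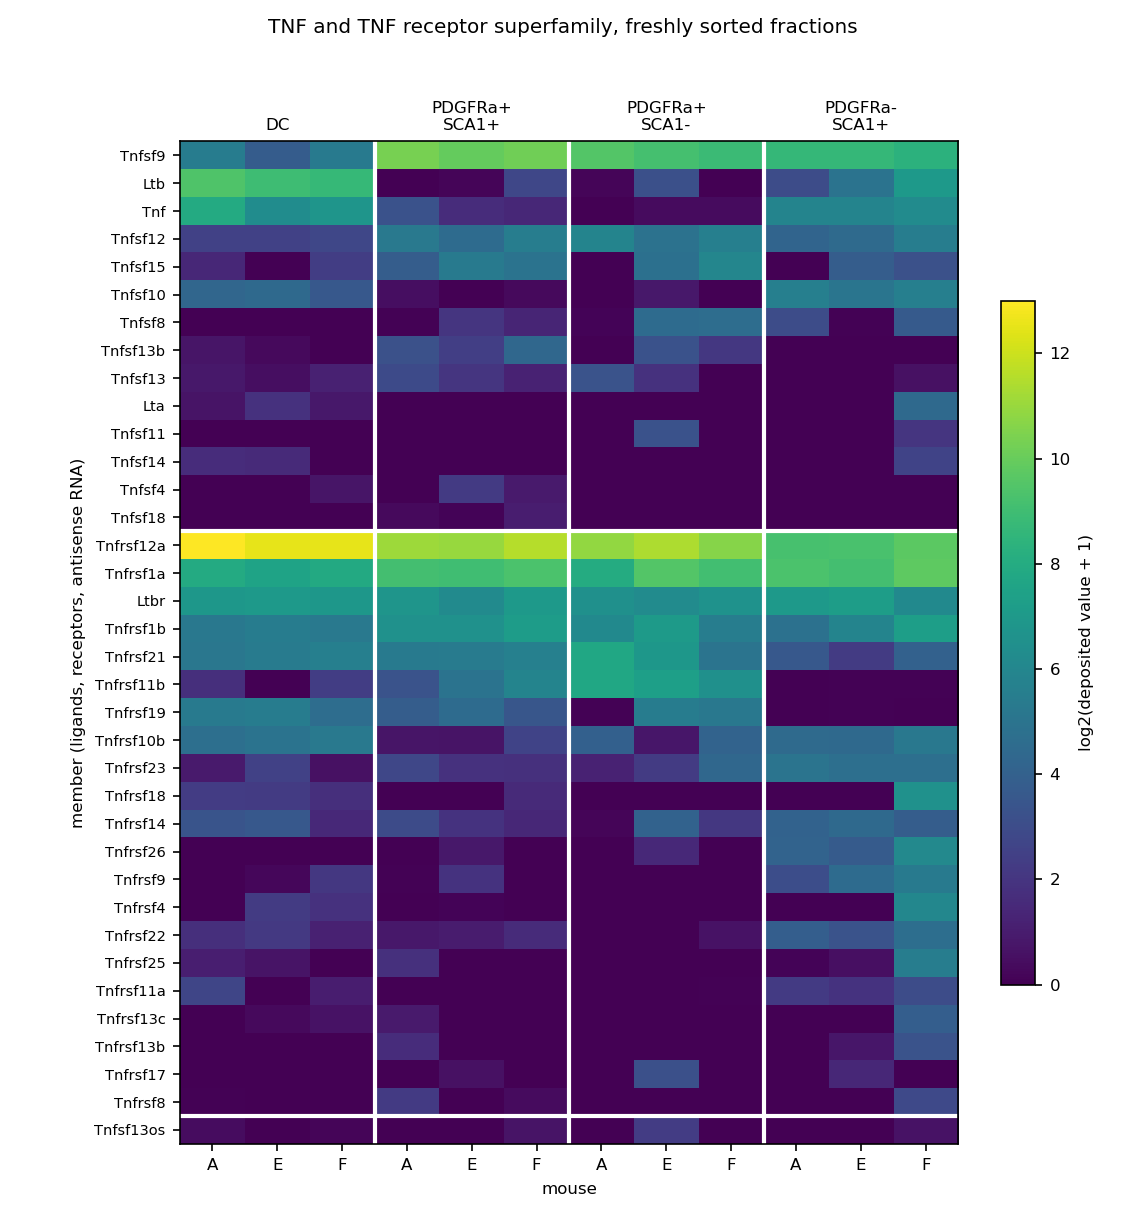
Level of each of the 36 members (rows, ligands above receptors) in each of the 12 sorted samples (columns, 3 mice per fraction), as the colour of log2(deposited value + 1). Tnfrsf12a is the brightest row, brightest in the DC columns, and Tnfrsf4, Tnfrsf18 and Tnfrsf25 are brightest in the PDGFRα-SCA1+ column of mouse F.

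Fn14 was the most abundant member in DCs sorted from healthy liver by a wide margin. The cells had been freed by enzyme digestion and sorted, and the part of this handling in the levels was not tested. Tnfrsf12a stood at 8075, 5892 and 5944 in the DCs of mice A, E and F, and made up 92.0% to 93.9% of the summed level of the 21 receptors there. It stood at 2209, 2062 and 2988 in PDGFRα+SCA1+ cells, at 1879, 2719 and 1620 in PDGFRα+SCA1- cells and at 597, 622 and 849 in PDGFRα-SCA1+ cells. The DC values lay above all others, the PDGFRα-SCA1+ values below all others, and the values of the PDGFRα+ fractions overlapped. Against DCs the difference in log2(value + 1) was -1.46 (SE 0.24, limma adjusted p = 0.000767) in PDGFRα+SCA1+, -1.70 (SE 0.24, adjusted p = 0.000233) in PDGFRα+SCA1- and -3.27 (SE 0.24, adjusted p = 1.57e-06) in PDGFRα-SCA1+ cells. Over the 12 sorted samples the profiles most like that of Tnfrsf12a were those of Rpl10a, Cxcl2 and Errfi1 (Pearson r = 0.968, 0.968 and 0.965 on the log2 scale), given as a description.

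TWEAK itself had the opposite pattern. Tnfsf12 was listed at 4.75, 4.79 and 5.86 in DCs, at 37.5, 22.5 and 44.9 in PDGFRα+SCA1+ cells, at 56.7, 28.7 and 47.7 in PDGFRα+SCA1- cells and at 17.3, 21.9 and 45.2 in PDGFRα-SCA1+ cells. No stromal value reached down to the DC range, and the stromal fractions overlapped each other. The 3 differences from DCs were 2.5 (SE 0.44, limma adjusted p = 0.00119), 2.84 (SE 0.44, adjusted p = 0.000434) and 2.14 (SE 0.44, adjusted p = 0.00352) in the same order.

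The ligands of DCs were lymphotoxin β and TNF, whereas the stroma was led by 4-1BBL. Ltb, the membrane partner of lymphotoxin α, stood at 688, 502 and 419 in DCs and supplied 68.4% to 80.2% of their summed ligand level. In PDGFRα+SCA1+ cells it was at 0, 0.123 and 5.73, in PDGFRα+SCA1- cells at 0.112, 8.08 and 0, and in PDGFRα-SCA1+ cells at 7.25, 29.9 and 126. Every DC value lay above every stromal value. The 5 ductal markers summed to 79.2, 3706 and 314 in the PDGFRα-SCA1+ libraries of mice A, E and F, with 3, 4 and 4 of them at 1 or more, and their part in the ductal-high members of that fraction was not tested.

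Tnf was at 245, 80.4 and 109 in DCs, at 8.58, 2.14 and 1.68 in PDGFRα+SCA1+ cells, at 0, 0.289 and 0.292 in PDGFRα+SCA1- cells and at 56.5, 56.4 and 76.2 in PDGFRα-SCA1+ cells. The PDGFRα+ fractions were low in each mouse, and PDGFRα-SCA1+ cells were close under the DC range. Against DCs Tnf was lower by a log2 difference of -4.91 (SE 0.56, limma adjusted p = 3.92e-05) in PDGFRα+SCA1+ and -6.78 (SE 0.56, adjusted p = 3.12e-06) in PDGFRα+SCA1- cells, and Ltb by -8.07 and -7.93 (SE 1.08 each, adjusted p = 0.000149 and 0.000165). In PDGFRα-SCA1+ cells Ltb was lower than in DCs by -4.05 (SE 1.08, adjusted p = 0.0166), a call that was lost when DC sample A, DC sample E or PDGFRα-SCA1+ sample A was left out (largest adjusted p over the alternatives 0.137), and Tnf did not pass the test.

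Tnfsf9, which encodes 4-1BBL, stood at 43.5, 12.7 and 39.1 in DCs, at 1278, 956 and 1167 in PDGFRα+SCA1+ cells, at 742, 570 and 458 in PDGFRα+SCA1- cells and at 409, 403 and 323 in PDGFRα-SCA1+ cells. DCs were the low group without overlap, and PDGFRα+SCA1+ cells lay above both other stromal fractions. It supplied 91.6% to 94.5% of the summed ligand level of PDGFRα+SCA1+ cells. Against DCs it was higher by 5.28, 4.32 and 3.70 in the 3 stromal fractions (SE 0.38 each, limma adjusted p = 1.11e-06, 5.31e-06 and 2.02e-05). Its receptor gene Tnfrsf9 was at 7.51, 22.2 and 38.7 in PDGFRα-SCA1+ cells and at no more than 3.25 in any other sorted sample.

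**Figure D2:**
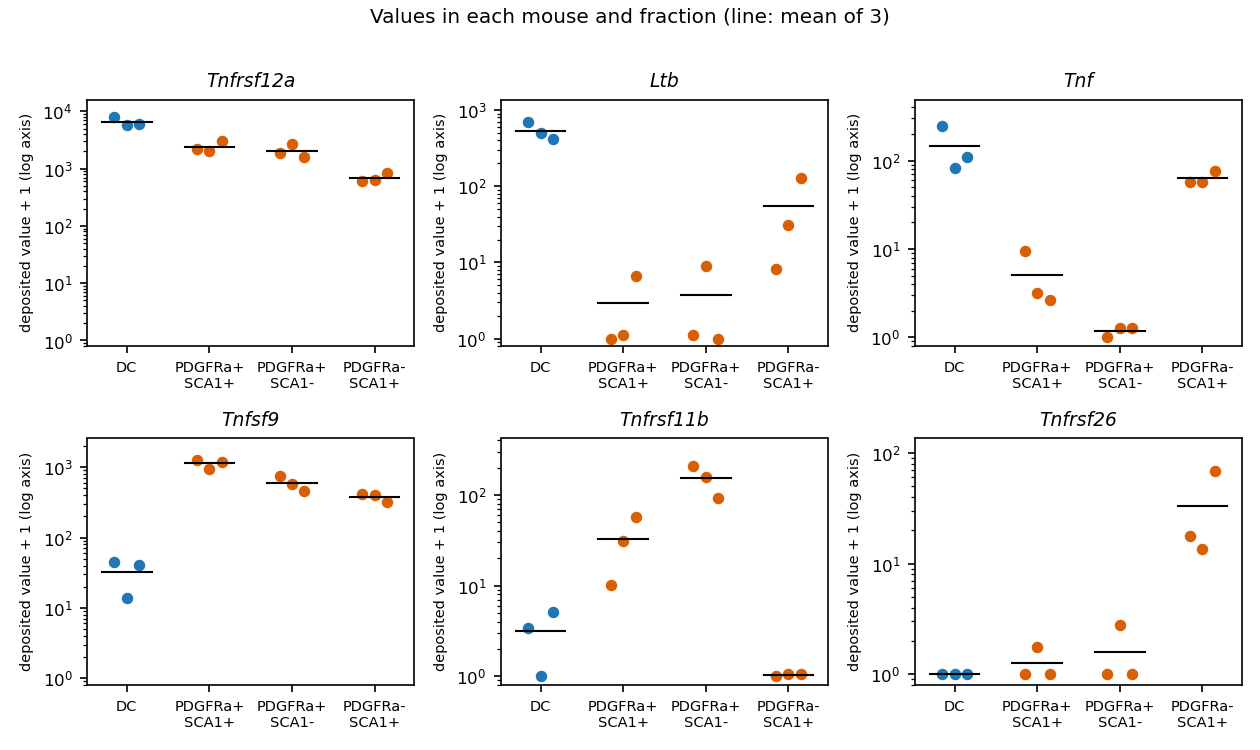
Value + 1 on a log axis of 6 members in each mouse (points) and fraction, DCs in blue and stroma in orange, with the mean of 3 mice as a line. Tnfrsf12a, Ltb and Tnf are highest in DCs, Tnfsf9 in PDGFRα+SCA1+ cells, Tnfrsf11b in PDGFRα+SCA1- cells and Tnfrsf26 in PDGFRα-SCA1+ cells.

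TRAIL, the ligand of a death receptor, was higher in DCs and PDGFRα-SCA1+ cells than in the PDGFRα+ fractions. Tnfsf10 was listed at 18.3, 20.4 and 11.0 in DCs and at 48.2, 32.7 and 47.4 in PDGFRα-SCA1+ cells, but at no more than 0.78 in any PDGFRα+ sample. It was lower than in DCs by -3.82 in each PDGFRα+ fraction (SE 0.50, limma adjusted p = 0.000131 and 0.000129). The 5 hepatocyte markers summed to 5840 to 6967 in DCs and 2035 to 6527 in PDGFRα-SCA1+ cells, against 217 to 1671 in PDGFRα+ samples. In each library 4 or 5 of them were at 1 or more. The PDGFRα-SCA1+ samples of mice A and F had lower sums (2760.5 and 2035) than any DC sample but higher Tnfsf10. Mouse E had the highest sum of that fraction and its lowest Tnfsf10. At day 0 of the transwell experiment, SCA1+ cells had sums of 20788 and 16122 and a mean Tnfsf10 of 3.74 TPM. DCs there had sums of 4211.5 and 5294.4 and a mean of 10.017 TPM. The part of these markers in the Tnfsf10 levels was not tested. The TRAIL receptor gene Tnfrsf10b stood at 25.9, 30.4 and 37.6 in DCs and at 21.3, 20.9 and 35.9 in PDGFRα-SCA1+ cells. It was at 0.644, 0.63 and 5.15 in PDGFRα+SCA1+ cells (-3.65 against DCs, SE 0.83, adjusted p = 0.0065) and at 14.8, 0.751 and 16.6 in PDGFRα+SCA1- cells, where the difference did not pass (adjusted p = 0.0889).

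Among the sorted fractions, osteoprotegerin was highest in the PDGFRα+ stroma. Tnfrsf11b stood at 2.41, 0 and 4.06 in DCs, at 9.19, 30 and 56.3 in PDGFRα+SCA1+ cells, at 210, 159 and 92.6 in PDGFRα+SCA1- cells and at 0, 0.0567 and 0.0489 in PDGFRα-SCA1+ cells. The PDGFRα+SCA1- values lay above the PDGFRα+SCA1+ values and these above the rest, while DCs and PDGFRα-SCA1+ cells overlapped near 0. It was higher than in DCs by 3.34 (SE 0.73, limma adjusted p = 0.00487) in PDGFRα+SCA1+ and by 5.83 (SE 0.73, adjusted p = 7.92e-05) in PDGFRα+SCA1- cells. Between these PDGFRα+ fractions the difference was -2.48 (SE 0.73), with an unadjusted p = 0.00508 and an adjusted p = 0.191. Smooth muscle markers, 4 genes, summed to 1236, 1889 and 2769 in PDGFRα+SCA1- mice A, E and F and to 129 to 169 in PDGFRα+SCA1+ cells. Within PDGFRα+SCA1- cells the mice were thus in the opposite order to that of Tnfrsf11b. The part of smooth muscle cells in the Tnfrsf11b levels was not tested. P2rx6, Fam171b and Sgcd had the profiles most like it (r = 0.968, 0.963 and 0.961, n = 12 samples). Of the ligands that osteoprotegerin binds, Tnfsf11 was at 8.81 in PDGFRα+SCA1- mouse E, at 2.96 in PDGFRα-SCA1+ mouse F and at 0 in the other sorted samples.

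Among the receptors of TNF and lymphotoxin, the broadly used type I receptor was higher in stroma. Tnfrsf1a stood at 244, 183 and 237 in DCs, at 555, 523 and 648 in PDGFRα+SCA1+ cells, at 253, 746 and 535 in PDGFRα+SCA1- cells and at 648, 557 and 876 in PDGFRα-SCA1+ cells. PDGFRα+SCA1- mouse A was close to the DC range and the other 8 stromal samples lay well above it. The log2 differences from DCs were 1.38, 1.08 and 1.63 (SE 0.34 each, limma adjusted p = 0.0101, 0.0312 and 0.00363), and the call in PDGFRα+SCA1- cells was lost with any of 5 libraries left out (largest adjusted p 0.113): each DC library and the PDGFRα+SCA1- libraries of mice E and F. The type II receptor gene Tnfrsf1b, at 36.3, 43.7 and 37.2 in DCs and 95.1, 94.5 and 144 in PDGFRα+SCA1+ cells, did not overlap between these groups but did not pass (1.46, adjusted p = 0.0731). Ltbr, the lymphotoxin β receptor, ranged from 71.8 to 148 over the 12 samples and passed no test among the fractions.

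Tnfrsf19 (TROY, a receptor described in Wnt-responsive stem cells) and Tnfrsf21 (death receptor 6) were low in PDGFRα-SCA1+ cells. Tnfrsf19 was at 38.9, 42.4 and 24.4 in DCs and at 13.2, 22.3 and 10.1 in PDGFRα+SCA1+ cells, against 0, 0.039 and 0 in PDGFRα-SCA1+ cells. In PDGFRα+SCA1- cells it stood at 0.039 in mouse A and at 43.4 and 36.4 in mice E and F, so that mouse A stood apart. Tnfrsf21 was at 34.8, 42.2 and 48.6 in DCs, at 38.8, 41.3 and 49.3 in PDGFRα+SCA1+ cells and at 217, 118 and 30.8 in PDGFRα+SCA1- cells, and at 11.0, 3.78 and 15.6 in PDGFRα-SCA1+ cells. PDGFRα-SCA1+ cells were lower than DCs by -5.12 (SE 1.12, limma adjusted p = 0.00502) for Tnfrsf19 and by -2.11 (SE 0.63, adjusted p = 0.0282) for Tnfrsf21. The Tnfrsf21 call was lost with any of 4 libraries left out (largest adjusted p over the alternatives 0.112): each DC library and PDGFRα-SCA1+ mouse E.

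The neighbouring receptor genes Tnfrsf26, Tnfrsf22 and Tnfrsf23, of which the last 2 encode decoy receptors for TRAIL, lie side by side on the minus strand of chromosome 7 (GRCm38, 143607659 to 143685872 from the first start to the last end) and were higher in PDGFRα-SCA1+ cells than in DCs. Tnfrsf26 was listed at 0 in the 3 DC samples and at 16.9, 12.5 and 67.5 in PDGFRα-SCA1+ cells. Tnfrsf22 stood at 2.34, 3.51 and 1.29 in DCs and at 13.9, 9.20 and 25.1 in PDGFRα-SCA1+ cells, and Tnfrsf23 at 0.904, 4.75 and 0.484 in DCs and at 30.8, 25.7 and 25.8 in PDGFRα-SCA1+ cells. PDGFRα-SCA1+ cells were above the DCs of each mouse for the 3 genes. The differences were 4.67 (SE 0.66, limma adjusted p = 0.000245), 2.28 (SE 0.54, adjusted p = 0.00873) and 3.48 (SE 0.79, adjusted p = 0.00618), of which the first depends on the 1 that was added, since DCs were at 0, and the second was lost when 0.1 was added instead (adjusted p = 0.0834). Of the 50-base windows of the annotated Tnfrsf22 transcripts, 719 of 4147 (17.3%) also occur in Tnfrsf23, and such reads are lost to both genes or uncertain between them; Tnfrsf26 shares none with either.

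BAFF, the B-cell survival factor encoded by Tnfsf13b, was found in PDGFRα+ cells. It stood at 8.23, 4.24 and 19.4 in PDGFRα+SCA1+ cells and at 0, 8.76 and 3.25 in PDGFRα+SCA1- cells, against no more than 0.647 in DCs and 0.0248 in PDGFRα-SCA1+ cells. It was higher in PDGFRα+SCA1+ cells than in DCs by 2.96 (SE 0.77, limma adjusted p = 0.0141), a call lost without DC mouse F or without PDGFRα+SCA1+ mouse F (largest adjusted p 0.0599). Tnfsf15 (TL1A) stood at 13.1, 39.5 and 29.5 in PDGFRα+SCA1+ cells and at 1.75, 0 and 4.20 in DCs without passing (adjusted p = 0.103). Tnfsf8 (CD30 ligand) was at 0.109, 22.0 and 23.8 in PDGFRα+SCA1- cells and at 0 in DCs (adjusted p = 0.0712).

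HVEM, the receptor of LIGHT (Tnfsf14) encoded by Tnfrsf14, stood at 9.44, 10.8 and 1.85 in DCs, at 6.87, 2.75 and 1.74 in PDGFRα+SCA1+ cells, at 0.116, 15.9 and 3.34 in PDGFRα+SCA1- cells and at 15.9, 20.9 and 13.2 in PDGFRα-SCA1+ cells. It overlapped between most fractions and passed no test there. APRIL was low in the fractions, with Tnfsf13 at 8.92 in PDGFRα+SCA1- mouse A as its highest value. The remaining members were low as well: Tnfrsf17 (BCMA) reached 8.04, Tnfrsf8 (CD30) 6.19, Tnfsf14 5.19, Tnfsf4 (OX40 ligand) 3.6 and Tnfrsf11a (RANK) 7.22 in single sorted samples.

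In counts, PDGFRα+SCA1+ cells had 5 members higher and 5 lower than DCs, beside 9.85% and 14% of the 17028 genes tested. PDGFRα+SCA1- cells had 4 higher and 4 lower, beside 9.98% and 18.9%, and PDGFRα-SCA1+ cells had 7 higher and 4 lower, beside 11.5% and 11.3%. PDGFRα-SCA1+ cells differed from PDGFRα+SCA1+ cells in 15 members, 9 of them higher (Ltb, Tnf, Tnfsf10, Tnfrsf9, Tnfrsf10b, Tnfrsf11a, Tnfrsf22, Tnfrsf23 and Tnfrsf26) and 6 lower (Tnfsf9, Tnfsf13b, Tnfrsf11b, Tnfrsf12a, Tnfrsf19 and Tnfrsf21), beside 10.9% and 7.86% of all genes. Quantile normalisation moved the share of all called genes that were higher from 34.6% to 46.2% in PDGFRα+SCA1- cells against DCs and from 58.1% to 45.7% in this last contrast. Of the 36 members 27 entered these tests, the others not reaching a value of 1 in 3 samples. A low gene enters mainly through the group where it is high, and no share of the members tested is read as a result.

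Between PDGFRα-SCA1+ and PDGFRα+SCA1+ cells the differences of 9 members kept their call under every alternative run, among them those of TRAIL, osteoprotegerin and TNF. Tnfsf10 was higher by a log2 difference of 5.16 (SE 0.50, limma adjusted p = 2.1e-05) and Tnf by 3.87 (SE 0.56, adjusted p = 0.00038), and Tnfrsf11b was lower by -4.67 (SE 0.73, adjusted p = 0.000668). Tnfsf9 was lower by -1.58 (SE 0.38, adjusted p = 0.0118) and Tnfrsf12a by -1.81 (SE 0.24, adjusted p = 0.000215).

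Between PDGFRα+SCA1+ and PDGFRα+SCA1- cells no member passed by limma, beside 0.435% of all genes higher and 0.153% lower. At an unadjusted p under 0.05 there were 3: Tnfrsf11b, Tnf (1.87, SE 0.56, adjusted p = 0.201) and Tnfsf9 (0.96, SE 0.38, adjusted p = 0.35). The share of all genes at that unadjusted threshold was not counted. The count of members that passed after adjustment stayed at 0 under the planned settings other than leaving out a sample. It was 1 without PDGFRα+SCA1- mouse E. The library of PDGFRα+SCA1- mouse A listed 3 of the 14 ligands at 1 or more, against 8 and 5 in mice E and F.

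Several members were seen in the PDGFRα-SCA1+ library of mouse F and little elsewhere. It held Tnfrsf4 (OX40) at 64.4, Tnfrsf18 (GITR) at 92.8, Tnfrsf25 (death receptor 3) at 44.4 and Lta at 20.8, whereas mice A and E had 0 for Tnfrsf4, Tnfrsf18 and Lta and at most 0.465 for Tnfrsf25. The BAFF receptor gene Tnfrsf13c was at 14.0 and Tnfrsf13b (TACI) at 8.87 in mouse F. These genes are known from lymphocytes. In the same library Ptprc, which encodes CD45, was at 75.2 against 3.10 and 0.224 in mice A and E, Cd3e at 40.9 against 13.3 and 17.6, and Cd79a at 135 against 33.2 and 44.4.

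The 8 leukocyte markers as a whole summed to 248, 321 and 325 in PDGFRα-SCA1+ mice A, E and F, where 6, 4 and 5 of the 8 reached a value of 1 and Adgre1, Csf1r and Itgam were at 0 in mouse F, and to 25.7 to 212 in the other fractions. Their part in these levels was not tested. Mouse F was also the only female. Without this library 12 members were called against DCs in place of 11, and against PDGFRα+SCA1+ cells the calls of Tnfrsf11a, Tnfrsf10b, Ltb, Tnfrsf23 and Tnfrsf19 were lost (largest adjusted p over the alternatives 0.054, 0.0562, 0.0887, 0.101 and 0.097). Each of these except Tnfrsf11a was also lost without other libraries: Tnfrsf10b without PDGFRα+SCA1+ mouse A or E, Ltb without either of those or PDGFRα-SCA1+ mouse E, Tnfrsf23 without any library of the pair of fractions but PDGFRα+SCA1+ mouse A and with mouse as a replicate block (limma adjusted p = 0.0531), and Tnfrsf19 without any of them. Tnfrsf21 lost its call there without any library but PDGFRα-SCA1+ mouse F (0.114).

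Family genes with other names formed a list of 11, of which 7 were tested. In PDGFRα+SCA1+ cells 5 were higher than in DCs and none lower, beside 9.85% and 14% of all genes. They were the death receptor gene Fas (mean 454 against 21.8), the low-affinity nerve growth factor receptor gene Ngfr (191 against 1.02), Relt (33.7 against 6.18), Cd40 (20.9 against 2.70) and Eda2r (8.25 against 0.202). In PDGFRα-SCA1+ cells 4 were higher, Fas (mean 605), Cd40, Cd27 and Eda2r, and none lower, beside 11.5% and 11.3% of all genes. Of the 15 adaptors and death-signalling genes, 2 were higher and 2 lower in PDGFRα+SCA1+ cells, near the 9.85% and 14% of all genes. The lower ones were Casp8 (mean 8.97 against 96.5; -3.54, limma adjusted p = 0.0061) and Traf2 (22.7 against 72.7).

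Of the 22 NF-κB kinases, factors and regulators, 1 was higher and 3 lower in PDGFRα+SCA1+ cells than in DCs, which is no more than the share of all genes. Rela was among the lower ones (mean 379 against 1082) and Nfkb1 was the higher one (210 against 70.9). Of the 18 NF-κB response genes, 17 of them tested, 8 were higher and 4 lower, beside 9.85% and 14% of all genes. Among them the chemokine gene Ccl2 (mean 10520 against 213) and Il6 (3507 against 5.15) were higher, and Lcn2 (1.93 against 4213) and Cxcl2 (2029 against 3977) lower. The median difference was 1.03 over the response genes and -0.28 over all genes tested. Cxcl1, an early response chemokine, was the most abundant of this list in DCs and in both PDGFRα+ fractions (means 8864, 18101 and 11216).

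At day 0 of the transwell experiment Tnfrsf12a and Ltb were higher in DCs and Tnfsf9 in SCA1+ cells. Tnfrsf12a stood at 5707 and 5971 TPM in DCs and at 2692 and 2837 in SCA1+ cells, Ltb at 472 and 452 against 14.1 and 21.2, and Tnfsf9 at 20.9 and 22.9 against 924 and 804. The groups did not overlap for these genes. SCA1+ cells had 9 members higher and 7 lower than DCs, beside 21.4% and 24.7% of the 18136 genes tested, with 32 of 36 members tested. With Tnfsf12 (30.9 and 32.5 against 2.53 and 2; 3.33, SE 0.30, limma adjusted p = 1.72e-05), Tnfrsf11b (127 and 103 against 24.0 and 10.4; 2.78, SE 0.39, adjusted p = 0.000327) and Tnfrsf1a (562 and 401 against 236 and 226; 1.03, SE 0.15, adjusted p = 0.000372), the stromal side was the higher one.

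Tnfsf18, the GITR ligand gene, was at 2.99 and 9.85 in SCA1+ cells and at 0 in DCs, and Tnfrsf14 (HVEM) at 8.56 and 14.8 against 0.903 and 3.73. These fresh SCA1+ samples, sorted without PDGFRα, also held endothelial markers at a sum of 203 and 216, ductal markers at 1156 and 2418 and 5 hepatocyte markers at 20788 and 16122, whose part was not tested. Of the 16 calls, 6 were lost without a single library (largest adjusted p over the alternatives 0.0569 to 0.186). These were Tnf without DC replicate 1, Tnfsf13b without either DC sample, Tnfsf15 and Tnfrsf11a without DC replicate 2 or SCA1+ replicate 1, Tnfrsf14 without DC replicate 1 or SCA1+ replicate 2, and Tnfrsf18 without any of 8 libraries, the 4 day-0 ones among them.

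**Figure D3:**
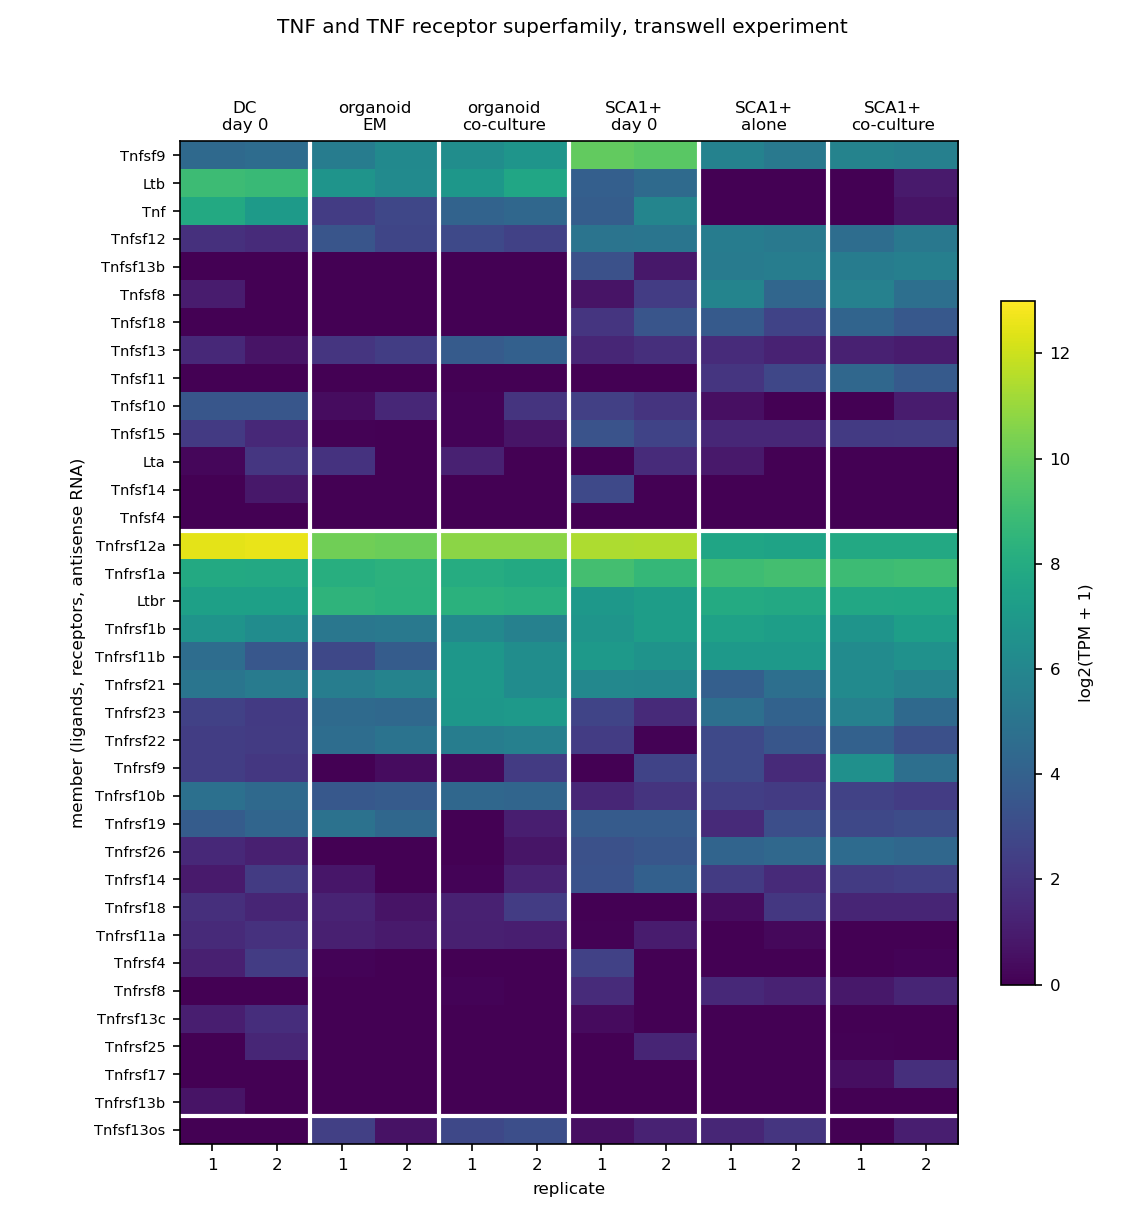
Level of the 36 members (rows, ligands above receptors) in the 12 transwell samples (columns, 2 replicates per group), as the colour of log2(TPM + 1). Tnf, Ltb and Tnfrsf12a darken from day 0 to culture in both compartments, while Tnfsf13b and Tnfsf8 are brightest in cultured SCA1+ cells.

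Members were called after culture in both compartments, in numbers near the share of all genes. Of 32 tested, 15 were called in EM organoids, 17 in co-culture organoids and 16 in SCA1+ cells alone. Of all genes tested, 44.4%, 42.3% and 44.8% were called in the same order. Organoids in EM had 6 members higher and 9 lower than the DCs they were grown from, beside 27.1% and 17.2% of all genes, and co-culture organoids 9 higher and 8 lower, beside 23.2% and 19.1%. SCA1+ cells cultured alone had 7 higher and 9 lower than at day 0, beside 27.4% and 17.5%. The 2 organoid comparisons share the day-0 DCs. Day-0 cells had been freed by enzyme digestion and sorted. In every comparison with day 0, this handling and culture cannot be told apart. The share of all genes called alike or in opposite directions in the 3 comparisons was not counted. The counts that follow are therefore a description only. In the 3 comparisons together, 5 members fell each time (Ltb, Tnf, Tnfsf10, Tnfsf15 and Tnfrsf12a), 3 rose each time (Ltbr, Tnfrsf22 and Tnfrsf23), and 3 were called in opposite directions (Tnfsf9, Tnfrsf21 and Tnfrsf26). Of these, the Tnfrsf26 call in co-culture organoids was lost under 13 of 20 alternatives, 9 of them leaving out a single library, in turn either DC sample among others (largest adjusted p over the alternatives 0.218).

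The receptor Fn14 fell most steadily. Tnfrsf12a was at 1176 and 1100 TPM in EM organoids and at 1729 and 1690 in co-culture organoids, from the day-0 range of 5707 to 5971. In SCA1+ cells it went from 2692 and 2837 to 200 and 186 alone and 230 and 230 in co-culture. All of these groups were separate. The log2 changes were -2.36 in EM, -1.77 in co-culture organoids and -3.84 in SCA1+ cells alone (SE 0.07 each, limma adjusted p = 5.21e-08, 2.22e-07 and 2.27e-09). Btg1, Car8 and Rragd had the profiles most like it over the 12 transwell samples (r = 0.991, 0.984 and 0.983).

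Tnf fell from 239 and 133 TPM in DCs to 3.93 and 5.83 in EM organoids and 16.8 and 19.0 in co-culture organoids. In SCA1+ cells it went from 13.3 and 59.8 at day 0 to 0 in both samples cultured alone and to 0 and 0.592 in co-culture. No cultured sample reached the day-0 range of its compartment. The changes were -4.95 and -3.25 in the organoids and -4.88 in SCA1+ cells alone (SE 0.59 each, limma adjusted p = 0.000125, 0.00174 and 0.000147), the last one set by the added 1.

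Ltb fell less in organoids, to 104 and 73.8 TPM in EM (-2.38, SE 0.36, limma adjusted p = 0.000569) and to 117 and 206 in co-culture (-1.57, SE 0.36, adjusted p = 0.00664), and remained their leading ligand gene with 45.6% to 62.6% of the summed ligand level. In cultured SCA1+ cells it was at 0, 0, 0 and 0.914. The co-culture organoid call was lost without co-culture organoid replicate 1, and both organoid calls were lost when 0.1 was added in place of 1 (limma adjusted p = 0.188 in co-culture and 0.0534 in EM, the largest over the alternatives). Tnfsf10 went from 10 in both DC samples to 0.346 and 1.69 in EM and 0.106 and 2.85 in co-culture, and Tnfsf15 from 3.58 and 1.86 to at most 0.674 in organoids. These low-level calls were less firm: Tnfsf10 was lost in the 3 comparisons with libraries left out (largest adjusted p 0.0876 to 0.13), namely EM replicate 1, either DC sample or co-culture organoid replicate 1, and any of the day-0 or cultured-alone SCA1+ samples, and Tnfsf15 in co-culture organoids without DC replicate 1 or co-culture organoid replicate 1 (0.0883).

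The 5 members that fell in each culture comparison had an entry for the bases before their start in RefSeq (GRCm38.p6). These bases are printed because each of the 5 was called lower in the 3 comparisons. They run 5′ to 3′ on the strand of the gene, up to 250 bases, and end before the annotated transcripts. Capitals mark a match to the NF-κB consensus on either strand. Ltb is on the plus strand at chr17:35194257-35194438, Tnf on the minus strand at chr17:35202008-35202257, Tnfrsf12a on the minus strand at chr17:23677469-23677699, Tnfsf10 on the plus strand at chr3:27316827-27317027 and Tnfsf15 on the minus strand at chr4:63745114-63745309.
Ltb: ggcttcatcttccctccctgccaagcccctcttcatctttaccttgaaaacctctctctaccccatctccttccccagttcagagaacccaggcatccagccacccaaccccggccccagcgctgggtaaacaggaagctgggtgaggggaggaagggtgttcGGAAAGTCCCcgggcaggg
Tnf: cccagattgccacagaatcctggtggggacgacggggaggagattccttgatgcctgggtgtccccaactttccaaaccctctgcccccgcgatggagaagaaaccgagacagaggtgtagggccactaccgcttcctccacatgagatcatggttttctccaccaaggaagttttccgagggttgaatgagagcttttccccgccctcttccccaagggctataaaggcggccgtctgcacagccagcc
Tnfrsf12a: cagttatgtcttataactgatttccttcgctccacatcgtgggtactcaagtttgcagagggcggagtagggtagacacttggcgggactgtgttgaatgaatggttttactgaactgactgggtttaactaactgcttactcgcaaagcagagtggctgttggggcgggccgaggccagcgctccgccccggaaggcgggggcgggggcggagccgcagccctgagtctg
Tnfsf10: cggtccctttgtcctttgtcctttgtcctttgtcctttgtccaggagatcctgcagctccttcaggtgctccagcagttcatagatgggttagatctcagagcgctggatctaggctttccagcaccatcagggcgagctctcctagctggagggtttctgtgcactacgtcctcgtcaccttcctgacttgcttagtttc
Tnfsf15: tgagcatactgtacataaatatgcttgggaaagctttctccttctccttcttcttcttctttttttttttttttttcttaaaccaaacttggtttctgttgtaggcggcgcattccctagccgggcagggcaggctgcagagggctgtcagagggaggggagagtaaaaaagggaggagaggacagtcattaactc
Of these, Ltb held 1 match, at 35194420 to 35194429, and the other 4 none in these windows. The consensus occurred in 3.9% of all 32851 RefSeq windows of the 250 bases before a start, and in those of 3 of the 28 members that had one: Ltb, Tnfrsf8 and Tnfrsf9. The AP-1 motif TGANTCA, which reads the same on both strands, occurred in 6.75% of all windows and in those of 5 members: Tnfrsf8, Tnfrsf9, Tnfsf13, Tnfsf13b and Tnfsf14. A match is a description of letters and says nothing of binding.

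Tnfsf9 went in opposite directions. From 924 and 804 TPM at day 0, SCA1+ cells fell to 54.3 and 37.8 alone (-4.22, SE 0.26, limma adjusted p = 2.51e-06) and stood at 55.9 and 48.9 in co-culture. From 20.9 and 22.9 in DCs, organoids rose to 42.6 and 70.9 in EM (1.29, SE 0.26, adjusted p = 0.00278) and 80.9 and 110 in co-culture (2.06, SE 0.26, adjusted p = 0.000188). Fresh SCA1+ cells stood far above DCs, while cultured SCA1+ cells lay within or below the range of the organoids.

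The receptor genes that rose were Ltbr and the chromosome 7 neighbours. Ltbr went from 168 and 167 TPM in DCs to 352 and 314 in EM and 315 and 294 in co-culture organoids, and from 121 and 151 in SCA1+ cells to 244 and 233 alone. Tnfrsf23 rose from 4.66 and 3.59 to 21.4 and 20.3 in EM and to 116 and 129 in co-culture organoids, its highest values in the experiment, and from 5.29 and 1.89 to 25.9 and 15.8 in SCA1+ cells alone. Tnfrsf22 went from 4.19 and 3.71 to 23.9 and 30.4 in EM and 44.4 and 49.2 in co-culture organoids. Groups did not overlap in these comparisons. The changes of Ltbr were 0.99, 0.86 and 0.81 (SE 0.12 each, limma adjusted p = 0.000115, 0.000298 and 0.000398), and those of Tnfrsf23 2.10, 4.59 and 2.31 (SE 0.46 each, adjusted p = 0.00449, 4.54e-05 and 0.0027). Tnfrsf22 rose by 2.5 and 3.27 in organoids (SE 0.61 each, adjusted p = 0.00826 and 0.00204), with the EM call lost without DC replicate 2 or EM replicate 2 (largest adjusted p over the alternatives 0.107).

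**Figure D4:**
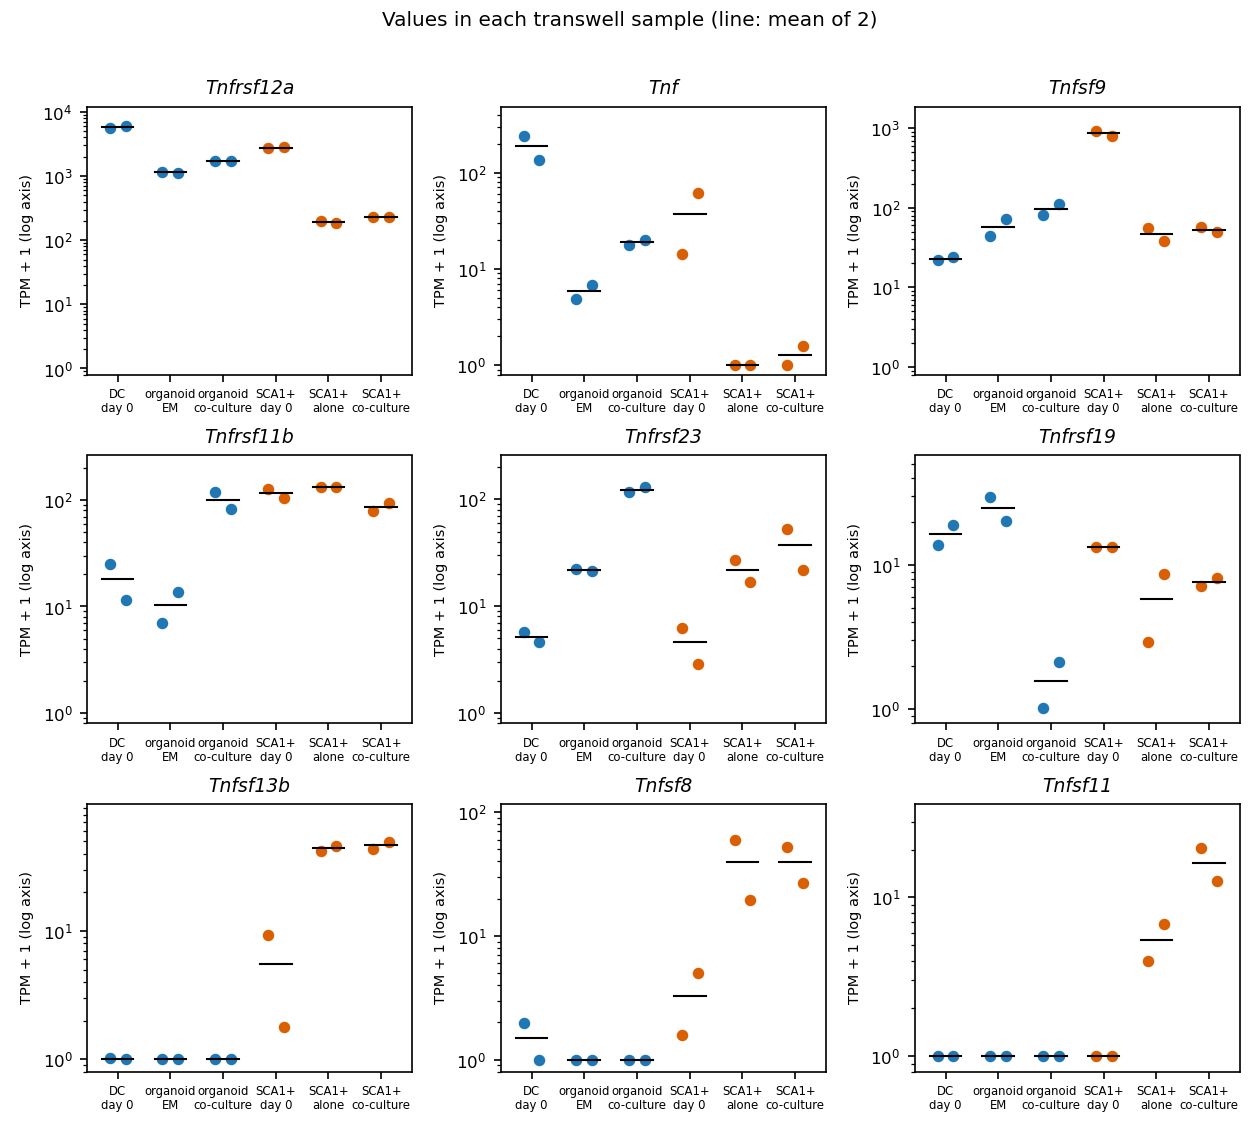
TPM + 1 on a log axis of 9 members in each transwell sample (points), DCs and organoids in blue and SCA1+ cells in orange, with the mean of 2 as a line. Tnfrsf12a and Tnf fall in culture in both compartments, Tnfsf9 falls in SCA1+ cells and rises in organoids, and Tnfrsf19 is near 0 in co-culture organoids.

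Organoids differed from day-0 DCs in further members. The type II TNF receptor gene Tnfrsf1b went from 104 and 78.5 TPM to 34.8 and 37.6 in EM (-1.30, SE 0.24, limma adjusted p = 0.0016) and stood at 68.3 and 52.1 in co-culture. Tnfsf12 went from 2.53 and 2 to 9.62 and 5.48 in EM (1.35, SE 0.30, adjusted p = 0.00481), and to 6.27 and 4.64 in co-culture, a call that was lost without either DC sample or co-culture organoid replicate 1 (0.98, adjusted p = 0.0251, largest over the alternatives 0.144). In EM the calls of Tnfrsf10b, Tnfrsf26 and Tnfsf13 were lost without DC replicate 1 or EM replicate 1, without DC replicate 1, and without DC replicate 2 or either EM sample (largest adjusted p 0.0874, 0.0502 and 0.169).

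Co-culture organoids had 4 members higher and 1 lower than EM organoids, beside 5.73% and 7.21% of all genes. Tnfrsf11b was at 117 and 80.9 TPM in co-culture against 6.02 and 12.8 in EM, 10.5 times as high by the means (3.32, SE 0.39, limma adjusted p = 0.000625), which lies within the 77.2 to 131 of cultured SCA1+ cells. Mesenchymal markers summed to 2.31 and 14.9 in co-culture organoids, 6.21 and 1.15 in EM organoids and 30892 to 36492 in cultured SCA1+ cells. Tnfrsf11b was higher in both co-culture samples than in any fresh or EM ductal sample.

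Tnfrsf12a was 1.5 times as high in co-culture as in EM organoids (0.59, SE 0.07, limma adjusted p = 0.000588), Tnfrsf23 5.86 times (2.49, SE 0.46, adjusted p = 0.00671) and Tnfsf13, which encodes APRIL, 3.68 times, at 12.2 and 14.6 against 3.08 and 4.21 TPM (1.64, SE 0.36, adjusted p = 0.0152). Tnfrsf19 was the 1 member that was lower, at 0.0234 and 1.14 TPM against 28.8 and 19.1 in EM and 12.9 and 18.1 in DCs at day 0 (-4.05 against EM, SE 0.51, adjusted p = 0.000953). The call of Tnfrsf23 was lost without co-culture organoid replicate 2 or EM replicate 2 (largest adjusted p 0.0564) and that of Tnfsf13 without any of the 4 organoid libraries (0.101), so that without co-culture organoid replicate 2 there were 3 calls in place of 5. Ahnak, Ccdc68 and Papss2 had the profiles most like Tnfrsf11b over the 12 transwell samples (r = 0.971, 0.967 and 0.940).

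The antisense RNA Tnfsf13os moved with Tnfsf13, at 6.15 and 7.77 TPM in co-culture organoids and 0 in DCs (limma adjusted p = 0.00309). Of its 1109 exon bases 221 (19.9%) lie in exons of Tnfsf13 on the other strand, and since the libraries do not mark strand, reads there cannot be told apart.

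In SCA1+ cells cultured alone, ligand genes at or near 0 in DCs and organoids rose. Tnfsf13b (BAFF) went from 8.33 and 0.777 TPM to 41.1 and 44.8 (3.43, SE 0.61, limma adjusted p = 0.00142), Tnfsf8 from 0.598 and 3.99 to 58.1 and 18.4 (3.58, SE 0.67, adjusted p = 0.0019), and Tnfsf11 (RANKL) from 0 in both samples to 2.97 and 5.77 (2.37, SE 0.35, adjusted p = 0.000483), where the added 1 sets the size of the difference (1.24 to 5.41 over the alternatives). The day-0 and cultured samples did not overlap. Tnfsf13b was listed at no more than 0.0169 and Tnfsf11 at 0 in all 6 DC and organoid samples. Other markers moved between the same samples: leukocyte markers summed to 224 and 168 at day 0 and 383 and 613 alone (6 and 5, then 4 and 5, of 8 at 1 or more), smooth muscle markers to 567 and 778 and then 3424 and 3123 (4 of 4 throughout), and hepatocyte markers to 20788 and 16122 and then 12.7 and 2.2 (5 and 5, then 2 and 1, of 5). Their part in the ligand levels was not tested. Tnfrsf21 fell from 65.8 and 64.5 to 14.2 and 25.5 (-1.72, SE 0.30, adjusted p = 0.00126), and the other members that fell were Ltb, Tnf, Tnfsf9, Tnfsf10, Tnfsf15, Tnfrsf12a, Tnfrsf14 and Tnfrsf19. Tnfrsf26 rose from 8.33 and 10.1 to 17.0 and 20.1 (0.94, SE 0.32, adjusted p = 0.0376), and its call and that of Tnfrsf19 were lost without any of 8 and 9 libraries respectively (largest adjusted p over the alternatives 0.362 and 0.349), those of Tnfrsf14 without SCA1+ day-0 or cultured-alone replicate 2 and of Tnfrsf22 without either cultured-alone sample or day-0 replicate 2 (0.219 and 0.142).

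Adding DCs above the SCA1+ cells gave no member that passed, by limma, against SCA1+ cells cultured alone, beside 0.0937% of all genes higher and 0.0331% lower. The count was 0 under each planned setting and without each library. At an unadjusted p under 0.05 there were 4, and the share of all genes at that threshold was not counted. Tnfrsf9, the 4-1BB receptor, was at 92.1 and 25.5 TPM in co-culture against 6.27 and 1.95 (3.43, SE 0.96, adjusted p = 0.379), Tnfrsf21 at 74.7 and 54.6 against 14.2 and 25.5 (1.69, SE 0.30, adjusted p = 0.104), and Tnfsf11 at 19.4 and 11.8 against 2.97 and 5.77 (1.64, SE 0.35, adjusted p = 0.182). The other, Tnfrsf12a, differed by 0.25 (SE 0.07, limma adjusted p = 0.358).

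The change from day 0 to co-culture differed between the compartments for 13 members. It was higher in SCA1+ cells for 6 and higher in ductal cells for 7, beside 14.5% and 13.8% of all genes. For Tnfrsf19, Ltb and Tnfrsf12a the higher change was a smaller fall. This comparison was added after the data had been seen, and 8 members were called without DC day-0 replicate 2. The largest difference was that of Tnfsf9, -4.02 in SCA1+ cells and 2.06 in ductal cells, a difference of -6.08 (SE 0.37, limma adjusted p = 8.08e-06). Tnfrsf12a fell in both, by 3.58 in SCA1+ and by 1.77 in ductal cells (difference -1.81, SE 0.10, adjusted p = 4.93e-06). Tnfsf11 was higher by 4.01 in SCA1+ cells, from 0 at day 0, and was at 0 throughout in ductal cells (adjusted p = 0.00044), so that the added 1 sets the size of this difference (2.57 to 7.25 over the alternatives).

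**Figure D5:**
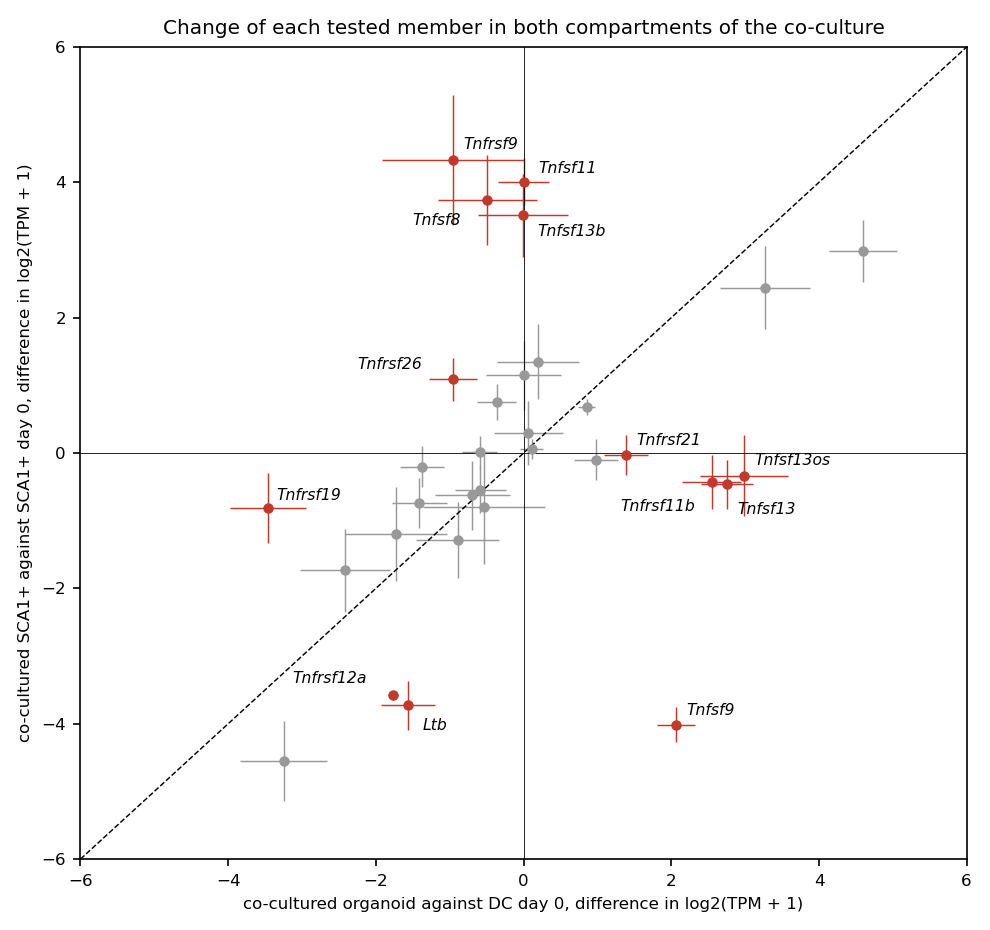
Difference in log2(TPM + 1) from day 0 to co-culture of each of the 32 tested members, ductal cells on the x axis and SCA1+ cells on the y axis, with bars of 1 SE. The 13 members in red differed between the compartments and lie off the dashed line of equal change, Tnfsf9 at 2.06 and -4.02.

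The lists around the members also differed between day 0 and culture, where handling of the day-0 cells cannot be told apart from culture. Of the 18 NF-κB response genes, 13 were lower and none higher in EM organoids than in DCs, beside 17.2% and 27.1% of all genes. In co-culture organoids 11 were lower and 1 higher, beside 19.1% and 23.2%. In SCA1+ cells cultured alone 14 were lower and 1 higher than at day 0, beside 17.5% and 27.4%. The median differences were -2.47, -1.67 and -3.77 in the same order, beside 0.12, 0 and 0.19 over all genes tested. Cxcl1 went from a mean of 6997 TPM in DCs to 150 in EM organoids, and from 11326 to 59.9 in SCA1+ cells alone; Il6 went from 2313 to 19.4 in SCA1+ cells. Sod2 and Il6 were the 2 response genes higher in SCA1+ cells in co-culture than alone (means 523 against 213 and 68.4 against 19.4; limma adjusted p = 0.011 and 0.03).

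Of the 22 NF-κB kinases, factors and regulators, 12 were lower and 4 higher in EM organoids, beside 17.2% and 27.1% of all genes. In co-culture organoids 13 were lower and 4 higher, beside 19.1% and 23.2%. In SCA1+ cells alone 11 were lower and 5 higher, beside 17.5% and 27.4%. Nfkbia, the inhibitor induced by NF-κB, went from a mean of 5870 to 485 TPM in EM organoids and from 7597 to 296 in SCA1+ cells alone, and Tnfaip3 (A20) from 382 to 13.3 and from 315 to 2.58. Tnfaip3 was the 1 gene of this list that differed between co-culture and EM organoids (57.2 against 13.3; 2.02, limma adjusted p = 0.001). Of the 15 adaptors and death-signalling genes, 4 were higher in co-culture than EM organoids and none lower, beside 5.73% and 7.21% of all genes. The 4 were Casp8 (142 against 54.0), Ripk3 (116 against 50.4), Birc3 (38.4 against 13.9) and Mlkl (20 against 3.06).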

How the data were processed

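RNA of 12 sorted samples (4 fractions, 3 mice) and 12 transwell samples (6 groups of 2) was sequenced by Smart-seq2 as unstranded single 50-base reads. Per the study's methods and the submitters' processing notes, the authors aligned reads with STAR (2.5.0a) to GRCm38, filtered them with SAMtools and counted genes with featureCounts (1.6.0). The authors deposited RPKM for the transwell samples, which were scaled here to TPM. For the sorted samples the authors deposited values named TPM, which are treated as a score because their columns do not sum to one total (847270 to 1173511), and 4 columns of their means, which were not used. Of the transwell symbols, 26 had been turned into dates. Depth was estimated from the steps of low values, of which 92.9% and 93.1% came out as whole reads within 0.02.

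Genes at 1 or more in at least 3 (sorted) or 2 (transwell) samples were tested on log2(value + 1) with limma (3.58.1, R 4.3.3; lmFit and eBayes with trend, all groups of an experiment in 1 fit), two-sided, with Benjamini-Hochberg adjustment over all genes and a threshold of 0.05. The fit was tested on simulated data. Figures were drawn with matplotlib 3.10.9 under Python 3.11.15. Sorted samples of the same letter came from the same mouse. The main fit held no term for mouse. Deviations of same-mouse samples from their group means correlated at 0.00395 to 0.0973 (18 pairs, mean 0.0373). Those of samples of different mice and fractions correlated at -0.0946 to 0.0378 (36 pairs, mean -0.0187). Members with a group mean of at least 1 were named, and those of at least 5 with a call were given by sample. Of each list up to 6 called genes were named, those of highest mean. The members and lists were chosen with earlier results of these data known. Alternatives were another pseudocount, filter, scaling, trend, sample set and block, and each library left out.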

Additional observations from a re-analysis of the deposited data

Results flagged for a closer look

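In the transwell experiment the log2 change from day 0 to co-culture was compared between SCA1+ and ductal cells by the difference of the 2 changes in the limma fit (2 samples a group, Benjamini-Hochberg adjustment over all genes), and 13 members passed. In 6 the change was higher in SCA1+ cells. Tnfrsf9 differed from day 0 by 4.33 in SCA1+ and -0.96 in ductal cells, a difference of 5.29 (adjusted p = 0.0175). Tnfsf8 differed from day 0 by 3.74 and -0.49 (difference 4.23, adjusted p = 0.00933), Tnfsf11, at 0 before culture, by 4.01 and 0 (4.01, adjusted p = 0.00044, a size set by the added 1), and Tnfsf13b by 3.51 and -0.01 (3.52, adjusted p = 0.014). Tnfrsf19 differed from day 0 by -0.81 and -3.46 (2.65, adjusted p = 0.0235) and Tnfrsf26 by 1.09 and -0.95 (2.04, adjusted p = 0.00901).

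In 7 the change was lower in SCA1+ cells. Tnfsf9 differed from day 0 by -4.02 in SCA1+ and 2.06 in ductal cells, a difference of -6.08 (adjusted p = 8.08e-06). Tnfsf13os differed from day 0 by -0.34 and 2.99 (difference -3.32, adjusted p = 0.0174), Tnfsf13 by -0.46 and 2.76 (-3.22, adjusted p = 0.00152) and Tnfrsf11b by -0.43 and 2.55 (-2.97, adjusted p = 0.00398). Ltb differed from day 0 by -3.73 and -1.57 (-2.16, adjusted p = 0.0125), Tnfrsf12a by -3.58 and -1.77 (-1.81, adjusted p = 4.93e-06) and Tnfrsf21 by -0.03 and 1.39 (-1.42, adjusted p = 0.033). The calls of Tnfrsf9, Tnfsf13b, Tnfrsf19, Tnfsf13os, Ltb and Tnfrsf21 were lost with at least 1 library left out (largest adjusted p 0.0502 to 0.125), and 8 calls remained in number without DC day-0 replicate 2. Medium, expansion before co-culture and position in the transwell also differed between the compartments and cannot be told apart from cell type.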

How the results depend on the processing

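The number of members called stayed within 1.5 times its value in each of the 12 comparisons under the 8 alternatives that keep all samples. With each library left out it ranged from 9 to 12 (10 with all) for PDGFRα+SCA1+, 7 to 11 (8) for PDGFRα+SCA1- and 9 to 12 (11) for PDGFRα-SCA1+ cells against DCs, 10 to 16 (15) for PDGFRα-SCA1+ against PDGFRα+SCA1+ cells, and 0 to 1 (0) between the PDGFRα+ fractions, the 1 being without PDGFRα+SCA1- mouse E. In the transwell experiment it ranged from 12 to 17 (16) for SCA1+ cells against DCs at day 0, 12 to 17 (15) for EM and 12 to 18 (17) for co-culture organoids against DCs, 3 to 6 (5) between organoids, lowest without co-culture organoid replicate 2, 12 to 16 (16) for SCA1+ cells alone against day 0, 0 in each case for co-culture against alone, and 8 to 13 (13) for the difference in co-culture change, an alternative added after the data were seen, lowest without DC day-0 replicate 2. A sample left alone in its group was taken to vary like the others. Of 126 called values, 83 kept their call under every alternative run and none changed direction; 199 of 2510 refits lost a call, and the cause was not tested. With mouse as a replicate block the first 4 counts were 11, 8, 11 and 14, and Tnfrsf23 lost its call between PDGFRα-SCA1+ and PDGFRα+SCA1+ cells (2.68, limma adjusted p = 0.0531). With replicate number as a block Tnfrsf18 lost its call at day 0 (-1.56, adjusted p = 0.0502), leaving 15; same-number samples of the transwell experiment correlated at -0.0188 to 0.0295, which does not settle whether a shared number is a shared mouse. Quantile normalisation moved the median difference of all genes by up to 0.337 (PDGFRα+SCA1- against DCs, -0.47 to -0.14), and the share of calls that were higher between the PDGFRα+ fractions from 74% to 57.4%. There genes called fell from 100 to 54. Depth limits members near 0, where a few reads set the value.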
